A study of Homo sapiens with 4 samples.

Results

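The 36 genes described here are NRF2 (gene NFE2L2), its regulators and known NRF2 targets other than aldo-keto reductases, out of 57768 gene entries. They were selected on pathway membership with the genotype difference in log2(FPKM + 1) of these same libraries already known, so that difference is given as a description.

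NRF2 is a transcription factor that switches on genes of antioxidant defence and detoxification. In unstressed cells, KEAP1 holds NRF2 in the cytoplasm and presents it to a ubiquitin ligase for degradation. Oxidants and electrophiles modify KEAP1, and NRF2 then pairs with a small MAF protein such as MAFG and binds antioxidant response elements near its target genes. In liver, these targets supply glutathione and NADPH, reduce quinones and carbonyls, handle heme and iron, and export conjugates from the cell.

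RNA-seq had been performed on cells labelled HepG2, an established human liver cancer line, in 2 wild-type (WT) libraries and 2 C/EBPβ enh-/- libraries. In C/EBPβ enh-/- cells, both copies of a distal enhancer of CEBPB were deleted by CRISPR/Cas9. The cells grew in Dulbecco's modified Eagle's medium with serum, and the labels name no drug or stimulus. They mention a blank CRISPR/Cas9 vector without saying which cells received it, and whether the replicates were separate cultures or separate clones is not given in the sources used here. Any p-value therefore measures only the spread between these libraries, which may be technical. CEBPB encodes the transcription factor C/EBPβ. Its level in FPKM, a fragment number scaled by library size and by transcript length, was 30.6 in WT library 1, 19.2 in WT library 2, 12.4 in C/EBPβ enh-/- library 1 and 11.8 in C/EBPβ enh-/- library 2. The genotypes did not overlap, but limma gave an adjusted p of 0.125 for the log2 fold change of −0.94 (standard error 0.27), which did not pass the threshold of 0.05. Without WT replicate 1 the log2 fold change was −0.62, and without WT replicate 2 it was −1.27. In cultures sequenced as a whole, fewer cells with a high level and less RNA per cell cannot be told apart for any of the genes below.

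The liver markers listed for the cell label were near 0. All 16 genes listed as markers of hepatocytes and HepG2 cells, among them ALB, AFP, APOA1, TTR and HNF4A, were below 1 FPKM in every library, and FOXA2 was listed at 0 in all 4 libraries. Their summed level was 0.567 and 0.665 FPKM for WT, and 0.945 and 0.785 FPKM for C/EBPβ enh-/- cells, in libraries 1 and 2 of each. The squamous epithelial markers (5 of 5) and the endothelial markers (3 of 3 matched) were also below 1 FPKM in every library, with DSG3 and CDH5 the most abundant. Of the 5 leukocyte markers, 4 were below 1 FPKM and CD3E was listed at 0 in every library, while CD68, the most abundant, had 3.37 and 3.98 FPKM in WT and 7.79 and 2.17 FPKM in C/EBPβ enh-/- cells. The leukocyte list summed to 3.43 and 4.12 FPKM in WT and to 7.88 and 2.29 FPKM in C/EBPβ enh-/- cells. Of the 6 fibroblast markers, COL1A2 and THY1 were below 1 FPKM in every library. COL3A1, the most abundant, had 33.3 and 31.9 FPKM in WT and 45.8 and 55.7 FPKM in C/EBPβ enh-/- libraries, and COL1A1 had 15.5 and 11.4 FPKM in WT and 10.1 and 14.9 FPKM in C/EBPβ enh-/- libraries. PDGFRB had 4.15 and 5.59 FPKM in WT and 1.52 and 2.27 FPKM in C/EBPβ enh-/- libraries, and DCN had 1.33 and 1.24 against 0.11 and 0.392, so that these markers did not move together. The sum over the fibroblast list, most of it COL3A1, was 54.3, 50.1, 57.6 and 73.3 FPKM in the same order of libraries. The part of these marker levels in the results was not tested. CPS1, a urea cycle gene of hepatocytes that was not on the list and is named after its values were seen, went the other way, with 608 and 417 FPKM in WT and 242 and 360.2 FPKM in C/EBPβ enh-/- libraries. The 16 listed markers do not bear out the label HepG2, and CPS1 is 1 gene against them. HepG2 is used here only as the label, and the identity of the cells was not tested further.

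Depth also differed between libraries. The files hold no read counts, but the spacing of values under 0.3 FPKM gave relative depths, with WT library 1 set to 1, of 1.12 for WT library 2, 0.555 for C/EBPβ enh-/- library 1 and 1.22 for C/EBPβ enh-/- library 2. C/EBPβ enh-/- library 1 was therefore the shallowest. A single gene entry, ENSG00000259001, was listed at 0 in both WT libraries and held 15.2% (library 1) and 10.9% (library 2) of the summed FPKM of C/EBPβ enh-/- cells. Over the 12491 genes with a mean of at least 1 FPKM, the median log2 fold change between genotypes was −0.14, and it was 0.02 after scaling the libraries to the same total without that entry, a choice made after seeing the data. Fold changes below are on the log2(FPKM + 1) scale, which understates changes of low genes, and the value relative to this median of −0.14 is given where it matters.

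The antioxidant response element was looked for in the promoters of these genes, since binding there is the feature by which NRF2 targets are defined. RefSeq promoter windows on GRCh38.p14, each 300 bases long from 250 bases before a transcript start to 50 bases after it, were found for 25 of the 36 genes, 33 windows in all. The element core TGACNNNGC occurred on either strand in 11 of these 33 windows (33.3%), against 13.3% of all 35116 windows of that length. By gene, it was found in 10 of the 25 genes (CBR1, EPHX1, GCLM, GPX2, IDH1, KEAP1, ME1, PGD, PIR and TXNRD1), against 19.8% of the tested genes in the table. The AP-1 motif TGANTCA, which can overlap the element core, was found in 3 of 33 windows (9.09%) against 7.71% of all windows. The motif TTGCNNAA, part of the C/EBP consensus, was found in 3 of 33 windows (9.09%, in CBR1, GCLC and GSTM3) against 10.5% of all windows. Not in the table were SLC7A11, GSR, PRDX1, CBR3, CES1, ALDH3A1, HMOX1, FTH1, ABCC1, ABCC3 and TRIM16L. The matches that lay wholly before a start are shown with 10 bases on each side, 5′ to 3′ on the strand that reads TGAC, with the 9 bases of the match in capitals, so that the shared letters can be compared.
GCLM, chr1:93909446-93909474, plus strand: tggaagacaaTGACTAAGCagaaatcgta
KEAP1, chr19:10502784-10502812, plus strand: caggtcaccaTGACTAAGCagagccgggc
KEAP1, chr19:10502807-10502835, minus strand: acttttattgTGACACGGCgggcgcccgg
TXNRD1, chr12:104286920-104286948, minus strand: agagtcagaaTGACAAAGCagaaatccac
TXNRD1, chr12:104215670-104215698, plus strand: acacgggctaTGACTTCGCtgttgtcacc
ME1, chr6:83431170-83431198, minus strand: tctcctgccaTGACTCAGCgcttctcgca
IDH1, chr2:208255196-208255224, minus strand: cccctctcgcTGACTCCGCccatcccacg
CBR1, chr21:36069855-36069883, minus strand: ccagctagccTGACTTTGCagaacccgca
PGD, chr1:10398853-10398881, minus strand: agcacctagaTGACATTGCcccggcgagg
EPHX1, chr1:225825266-225825294, plus strand: tgagattggcTGACTTGGCaggactgtgc
GPX2, chr14:64942849-64942877, plus strand: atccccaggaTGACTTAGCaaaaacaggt

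GCLM and 1 of the KEAP1 matches had the same 9 bases, 34 and 31 bases before their starts. Matches are a description of these letters and were not shown to be bound in these cells.

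Levels of the 36 genes in WT cells spanned from abundant to nearly silent. FTL and FTH1, the light and heavy chains of the iron store ferritin, had the highest WT means (3021.5 and 684.5 FPKM), followed by the peroxiredoxin PRDX1 (667 FPKM). CES1, a carboxylesterase abundant in normal liver, and GPX2, a glutathione peroxidase, were the lowest, at or below 0.425 FPKM in every library, and did not reach the mean of 1 FPKM needed for the fit, which left 34 of the 36. Levels between genes are compared on FPKM, which is per length.

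**Figure D1:**
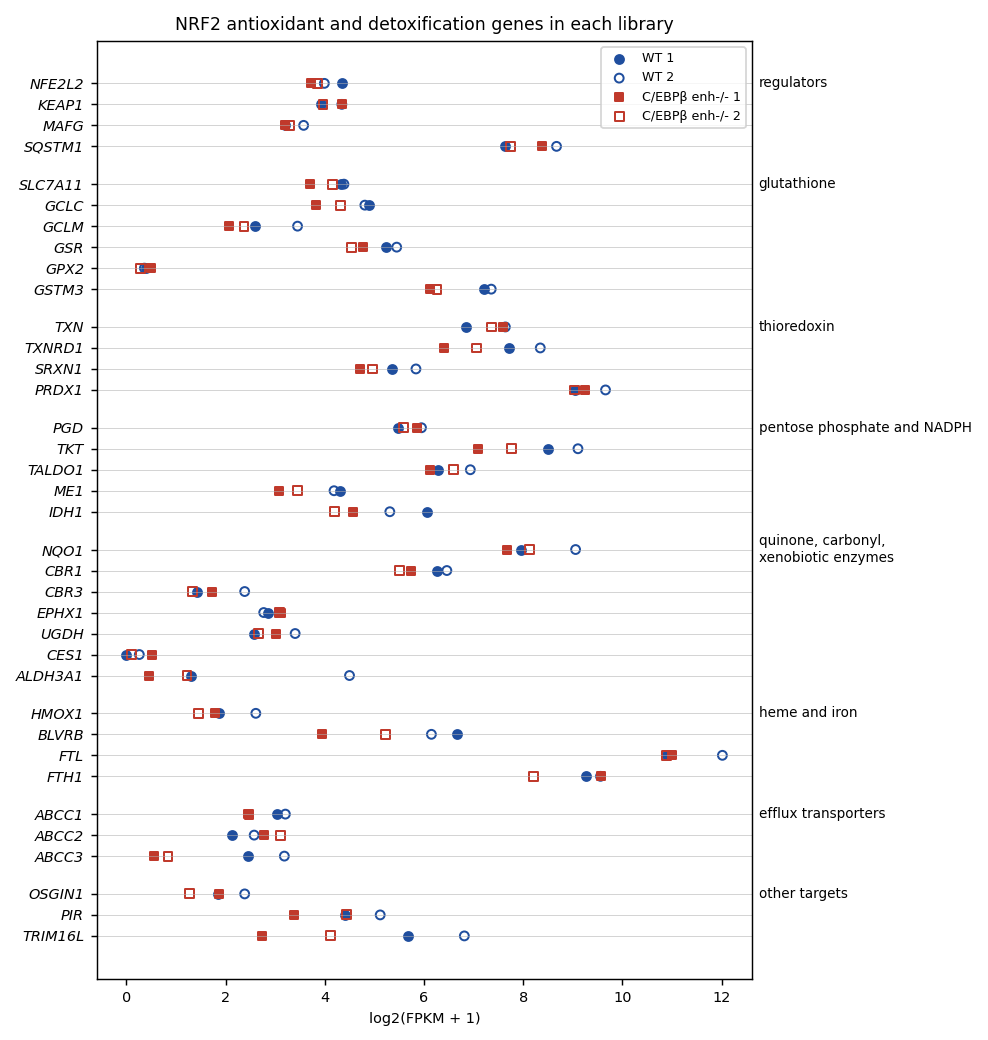
Level of each of the 36 genes as log2(FPKM + 1), with 1 point per library: filled circles are WT 1, open circles WT 2, filled squares C/EBPβ enh-/- 1 and open squares C/EBPβ enh-/- 2, and genes are grouped by role. For TXNRD1, TKT, GSTM3, IDH1, BLVRB, ABCC3 and TRIM16L all squares lie left of all circles, while squares and circles mix for KEAP1, SQSTM1, PGD and FTL.

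Which of these genes differed between the genotypes was read from limma fitted across all 12491 genes. Of the 34 genes in the fit, 18 had both C/EBPβ enh-/- values below both WT values, where 37.5% of all tested genes did. Only EPHX1 and ABCC2 had both values above, where 15.1% of all tested genes did, and in the other 14 the genotypes overlapped. With a log2 fold change of −1 or lower as well, 8 of the 34 genes remained (GSTM3, TXNRD1, TKT, IDH1, ALDH3A1, BLVRB, ABCC3 and TRIM16L), where 5.78% of all tested genes did. None was separated upwards by 1 or more, where 1.25% of all tested genes were. GSTM3 (−1.09) lay just inside that limit and ME1 (−0.98) just outside it. At an adjusted p under 0.05 (limma, Benjamini-Hochberg), 1 of the 34 genes was lower, ABCC3, where 1.21% of all tested genes were lower, and 0 were higher, where 0.248% were. At an unadjusted p under 0.05 (limma), 14 of the 34 were lower, where 16.9% of all tested genes were, and 0 were higher, where 3.86% were. Over all tested genes that split was 2114 lower and 482 higher. It was 1263 and 1142 with centring on the median, and 1168 and 1087 with rescaling without ENSG00000259001. The counts of the 34 at this p are given only without centring or rescaling, so they pair with the 2114 and 482. At the adjusted threshold, the split over all tested genes was 151 lower and 31 higher. It moved with the scaling and with the genes kept. It was 61 and 23 with rescaling to the same total and 68 and 31 with centring on the median. With rescaling without ENSG00000259001 it was 43 and 26, and without genes listed at 0 it was 324 and 47. The adjusted p of the other 33 genes ranged from 0.0581 for TRIM16L to 0.987 for PGD. Since the genes were listed with these values known, these counts describe the set and support nothing.

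The median log2 fold change of the 34 genes was −0.61, or −0.47 relative to all tested genes, with quartiles of −0.95 and −0.22. Without WT replicate 2 the median was −0.38, and without WT replicate 1 it was −0.83. The smallest p that a two-sided exact permutation of 2 libraries against 2 can give is 0.333.

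**Figure D2:**
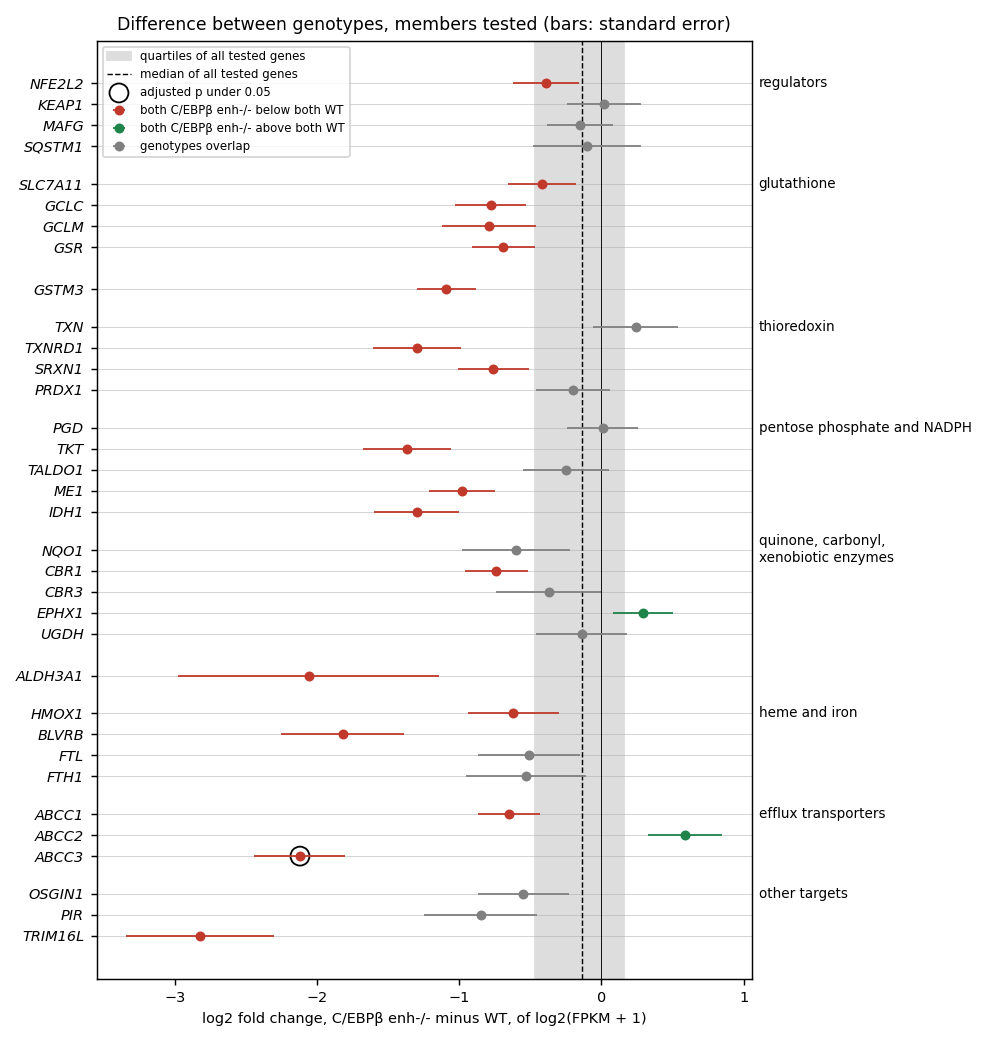
Log2 fold change of the 34 tested genes, C/EBPβ enh-/- minus WT, with bars of 1 standard error from limma (n = 2 libraries per genotype). Red points are genes with both C/EBPβ enh-/- values below both WT values, green points the reverse and grey points overlap, the grey band spans the quartiles of all tested genes (−0.47 and 0.16), and ABCC3 carries the ring for an adjusted p under 0.05.

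None of the 4 regulators passed the threshold. NFE2L2 (ENSG00000116044.11, chromosome 2 from 178083395 to 178257484 on GRCh37, minus strand) had 19.3 and 14.9 FPKM in WT cells and 12.1 and 13.4 FPKM in C/EBPβ enh-/- cells, in the order of libraries 1 and 2 used from here on. Both C/EBPβ enh-/- values were below both WT values, by a log2 fold change of −0.39 (standard error 0.23), close to the median of −0.44 over tested genes of chromosome 2, and it was −0.21 without WT replicate 1 and −0.21 with centring on the median. KEAP1 (ENSG00000079999.9, chromosome 19 from 10596801 to 10614234 on GRCh37, minus strand) had 14.1 and 19.3 FPKM in WT and 19.4 and 14.6 in C/EBPβ enh-/- libraries. Its genotypes overlapped, at a log2 fold change of 0.02 (standard error 0.26). MAFG had 8.2 and 10.9 FPKM in WT and 8.11 and 8.78 in C/EBPβ enh-/- libraries, which overlapped. SQSTM1, an autophagy receptor that binds KEAP1 and is itself an NRF2 target, ranged from 199 to 407 FPKM, and its WT libraries lay at both ends of that range. For KEAP1, MAFG and SQSTM1 the sign of the difference depended on which library was left out, and with centring on the median MAFG and SQSTM1 were at 0.03 and 0.08 in place of −0.15 and −0.10.

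All 5 tested genes of glutathione supply and use had both C/EBPβ enh-/- values below both WT values, where 37.5% of all tested genes did, and none passed the threshold. GCLC, the catalytic subunit of the enzyme that limits glutathione synthesis, had 28.8 and 27.0 FPKM in WT and 13.1 and 19.0 in C/EBPβ enh-/- libraries. Its log2 fold change was −0.78 (standard error 0.25), and the WT libraries were close to each other. GCLM, the modifier subunit, had 4.99 and 9.93 FPKM in WT and 3.21 and 4.17 in C/EBPβ enh-/- libraries. WT library 1 was near the C/EBPβ enh-/- values, and without WT replicate 2 the log2 fold change moved from −0.79 to −0.36. Without WT replicate 1 it was −1.23. SLC7A11, the cystine importer that feeds glutathione synthesis, had 19.0 and 19.9 FPKM in WT and 12.0 and 16.9 in C/EBPβ enh-/- libraries, a log2 fold change of −0.42. It was −0.19 without C/EBPβ enh-/- replicate 1, −0.65 without C/EBPβ enh-/- replicate 2 and −0.24 with centring on the median. GSR, which regenerates reduced glutathione, had a log2 fold change of −0.69. GSTM3, a glutathione S-transferase, had 147 and 163 FPKM in WT and 69.0 and 75.8 in C/EBPβ enh-/- libraries. Libraries of a genotype lay close together, and the log2 fold change was −1.09 (standard error 0.21). Fragments could be divided between GSTM3 and related GSTM genes, so its level is uncertain.

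In the thioredoxin system, 2 of the 4 genes were separated downwards (37.5% of all tested genes) and 2 overlapped, and none passed the threshold. TXNRD1 (ENSG00000198431.11, chromosome 12 from 104609557 to 104744085 on GRCh37, plus strand), the cytosolic thioredoxin reductase, had 209.8 and 324 FPKM in WT and 83.7 and 132 in C/EBPβ enh-/- libraries. All C/EBPβ enh-/- values were below all WT values, with means of 267 ± 80.8 and 108 ± 34.0 (SD, n = 2) and a log2 fold change of −1.30 (standard error 0.31). SRXN1, which repairs overoxidised peroxiredoxins, had a log2 fold change of −0.76 and did not overlap either. TXN, the thioredoxin that the reductase acts on, ranged from 114 FPKM in WT library 1 to 199 in WT library 2, and both C/EBPβ enh-/- values lay between these. The log2 fold change of TXN was 0.24, or −0.16 without WT replicate 1 and 0.64 without WT replicate 2. That of PRDX1 was −0.20, also with overlap, and it was −0.51 without WT replicate 1 and 0.11 without WT replicate 2.

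Of the 5 enzymes of the pentose phosphate pathway and NADPH supply, 3 were separated downwards (37.5% of all tested genes) and 2 overlapped, and none passed the threshold. TKT (ENSG00000163931.11, chromosome 3 from 53258728 to 53290068 on GRCh37, minus strand), the transketolase of the pathway's non-oxidative branch, which makes no NADPH itself, had 360.2 and 549.6 FPKM in WT and 135 and 216 in C/EBPβ enh-/- libraries. The means were 455 ± 134 and 176 ± 57.1 (SD, n = 2), the log2 fold change was −1.37 (standard error 0.31), and the genotypes were separated. IDH1, the cytosolic isocitrate dehydrogenase, had 65.3 and 38.7 FPKM in WT and 22.6 and 17.4 in C/EBPβ enh-/- libraries, a log2 fold change of −1.30 (standard error 0.30). ME1, the malic enzyme, had a log2 fold change of −0.98 (standard error 0.23) with separated genotypes. PGD, which makes NADPH in the oxidative branch, overlapped with a log2 fold change of 0.01, which was −0.23 without WT replicate 1 and 0.24 without WT replicate 2. TALDO1, the transaldolase of the non-oxidative branch, overlapped at −0.25, which was −0.57 without WT replicate 1, 0.08 without WT replicate 2 and −0.01 without C/EBPβ enh-/- replicate 1. PGD, IDH1 and ME1 all held the element core shown above.

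Among the enzymes for handling quinones, carbonyls and other foreign compounds, 2 of the 6 tested were separated downwards (37.5% of all tested genes). Separated upwards was 1 (15.1%), and none passed the threshold. NQO1, the quinone reductase most used as a readout of NRF2, had 246.5 and 531.7 FPKM in WT and 202.1 and 279.9 in C/EBPβ enh-/- libraries. WT library 1 lay between the C/EBPβ enh-/- values, so the genotypes overlapped, and the log2 fold change of −0.60 (standard error 0.38) was −0.05 without WT replicate 2 and −1.16 without WT replicate 1. CBR1, a carbonyl reductase, was separated, with a log2 fold change of −0.74, whereas CBR3 overlapped at −0.37. The value of CBR3 was 0.11 without WT replicate 2 and −0.85 without WT replicate 1. ALDH3A1, an aldehyde dehydrogenase, had 1.46 and 21.6 FPKM in WT and 0.376 and 1.33 in C/EBPβ enh-/- libraries. Its log2 fold change of −2.06 (standard error 0.92) rested on WT library 2 and was −0.46 without it. Without WT replicate 1 the value was −3.66. EPHX1, the microsomal epoxide hydrolase, had 6.28 and 5.81 FPKM in WT and 7.71 and 7.49 in C/EBPβ enh-/- libraries, both above both WT values, at a log2 fold change of 0.29 (standard error 0.21), or 0.46 with centring on the median. UGDH, which makes the UDP-glucuronate used in conjugation, overlapped at −0.14. Its value was 0.28 without WT replicate 2, −0.56 without WT replicate 1 and 0.03 with centring on the median.

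In heme and iron handling, 2 of the 4 genes were separated downwards (37.5% of all tested genes) and 2 overlapped, and none passed the threshold. BLVRB, a biliverdin and flavin reductase, had 100.4 and 70.0 FPKM in WT and 14.4 and 36.5 in C/EBPβ enh-/- libraries. The genotypes were separated, at a log2 fold change of −1.82 (standard error 0.43), although the C/EBPβ enh-/- libraries differed from each other by 1.29. The fold change was −1.18 without C/EBPβ enh-/- replicate 1 and −2.47 without C/EBPβ enh-/- replicate 2. HMOX1, the inducible heme oxygenase, was low, with 2.65 and 5.1 FPKM in WT and 2.43 and 1.75 in C/EBPβ enh-/- libraries. Its log2 fold change was −0.62 (standard error 0.32), or −0.25 without WT replicate 2, since WT library 1 was close to C/EBPβ enh-/- library 1. Without WT replicate 1 it was −0.99. FTL had 1898.2 and 4144.8 FPKM in WT and 2062.8 and 1888.6 in C/EBPβ enh-/- libraries, so that WT library 2 alone was high, and FTH1 was low in C/EBPβ enh-/- library 2 alone (295.1 FPKM). The log2 fold change of FTL was −0.51, or 0.06 without WT replicate 2 and −1.07 without WT replicate 1. That of FTH1 was −0.53, or 0.15 without C/EBPβ enh-/- replicate 2 and −1.20 without C/EBPβ enh-/- replicate 1. Both ferritin genes have many processed copies in the genome, and reads shared with these make their levels uncertain.

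Of the 3 conjugate exporters, ABCC3 passed the threshold and ABCC1 and ABCC2 did not. ABCC3 (ENSG00000108846.11, chromosome 17 from 48712138 to 48769614 on GRCh37, plus strand), a basolateral exporter of bile salts and glucuronides, fell from 4.45 and 8.09 FPKM in WT libraries to 0.471 and 0.788 in C/EBPβ enh-/- libraries. The means were 6.27 ± 2.57 and 0.63 ± 0.224 (SD, n = 2), a ratio of 0.1, and limma gave a log2 fold change of −2.12 (standard error 0.32) with an adjusted p of 0.0334. ABCC3 was past the threshold in 4 of the 8 other fits of all 4 libraries that tested it, not without the filter, with either rescaling or with centring, and in none of the 4 fits that left out a library, and its adjusted p ranged from 0.0176 to 0.275 (limma), with log2 fold changes from −3.10 to −1.75. ABCC1, an exporter of glutathione conjugates, had 7.16 and 8.22 FPKM in WT and 4.49 and 4.55 in C/EBPβ enh-/- libraries, a log2 fold change of −0.65 (standard error 0.22). ABCC2, the canalicular exporter, had 3.37 and 4.96 FPKM in WT and 5.86 and 7.58 in C/EBPβ enh-/- libraries. It was the member with the highest log2 fold change, 0.59 (standard error 0.26), with both values above both WT values. It was 0.36 without WT replicate 1 and 0.81 without WT replicate 2.

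TRIM16L had the lowest log2 fold change of all 34 genes. TRIM16L (ENSG00000108448.16, chromosome 17 from 18625550 to 18638773 on GRCh37, plus strand), a copy of the ubiquitin ligase gene TRIM16, had 50.3 and 111.5 FPKM in WT and 5.65 and 16.3 in C/EBPβ enh-/- libraries. The genotypes were separated, at a log2 fold change of −2.82 (standard error 0.52). Its adjusted p was 0.0581 (limma), which did not pass the threshold. It passed with the replicate block (0.00874, limma) and without genes listed at 0 (0.0306, limma). TRIM16L and TRIM16 are near copies between which fragments could be divided, so neither is independent of the other. PIR, an iron-binding nuclear protein, and OSGIN1, a growth inhibitor induced by oxidative stress, overlapped, with log2 fold changes of −0.85 and −0.55. That of PIR was −0.33 without C/EBPβ enh-/- replicate 1 and −1.38 without C/EBPβ enh-/- replicate 2. That of OSGIN1 was −0.26 without C/EBPβ enh-/- replicate 2 and −0.85 without C/EBPβ enh-/- replicate 1.

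Libraries of the same genotype also differed for many of these genes. WT library 2 was above WT library 1 in 28 of the 34 genes, against 6350 of the 12491 tested genes. The median difference on the log2 scale was 0.51 over the 34 genes and 0.01 over all tested genes. In 17 of the 34 genes WT library 2 was higher by over 0.5, where 9.53% of all tested genes were. In 2 (BLVRB and IDH1) WT library 1 was higher by over 0.5, where 1165 of the 12491 tested genes were. The differences were largest in ALDH3A1 (3.20), FTL (1.13), TRIM16L (1.13), NQO1 (1.11) and SQSTM1 (1.03). Between the C/EBPβ enh-/- libraries, library 2 was above library 1 in 19 of the 34 genes, against 5098 of the 12491 tested genes. The median difference was 0.12, against −0.09 over all tested genes. NQO1, FTL, PRDX1, TXN and SQSTM1 were among the genes in which WT library 2 was higher by over 0.5 and the genotypes overlapped. What lies behind this difference between WT libraries was not tested.

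**Figure D3:**
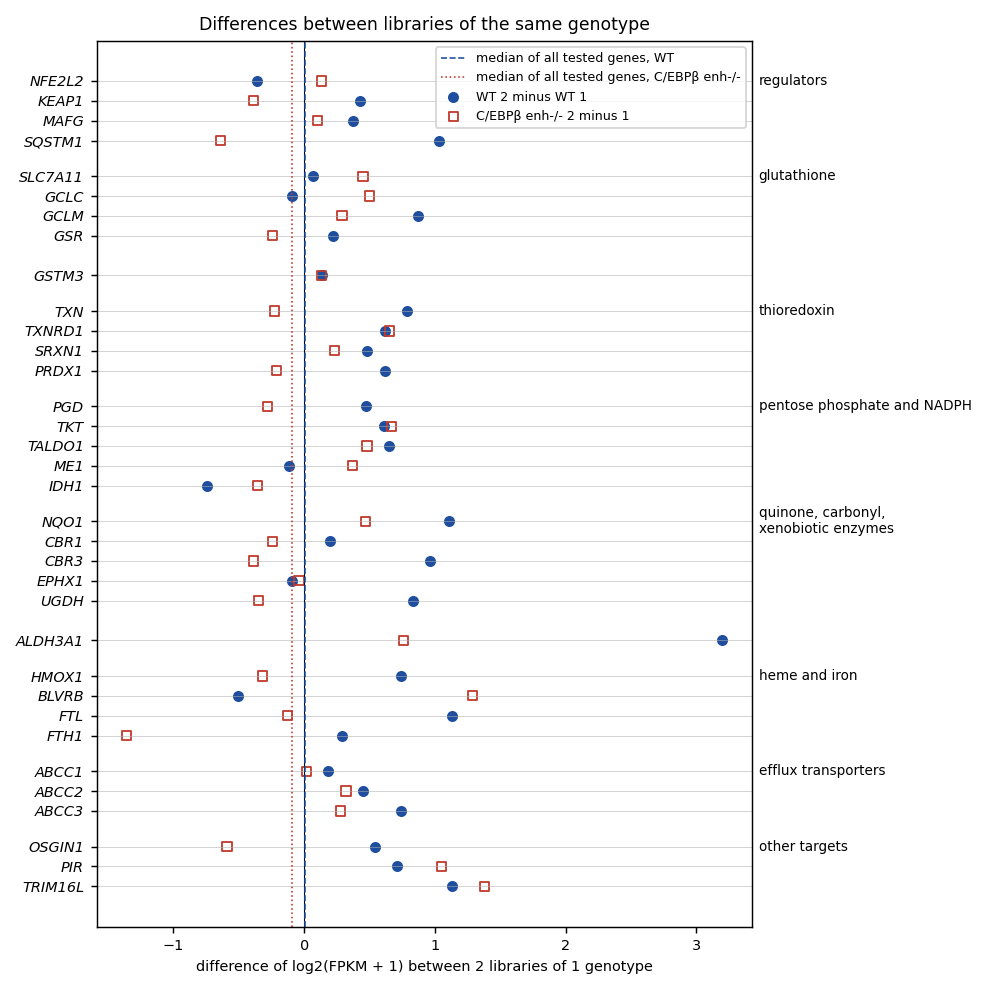
Difference of log2(FPKM + 1) between the 2 libraries of each genotype for the 34 tested genes: blue circles are WT 2 minus WT 1 and red squares C/EBPβ enh-/- 2 minus 1, with the medians of all tested genes (0.01 and −0.09) as lines. Most circles lie right of their line (28 above 0), while the squares scatter to both sides (19 above 0).

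The median log2 fold change of tested genes also varied between chromosomes, and it is given here beside single members. Whether whole chromosomes differed between the genotypes was not tested. The median log2 fold change of tested genes was −0.47 on chromosome 17, which holds TRIM16L, ALDH3A1, ABCC3 and MAFG, and −0.44 on chromosome 2, which holds NFE2L2 and IDH1. It was 0.21 on chromosome 8 and 0.11 on chromosome 6. Relative to the chromosome median, 25 of the 34 genes had a value below 0, with a median of −0.55. By definition, as many tested genes of a chromosome lie below its median as above, and the members were listed with their fold changes known. TRIM16L, BLVRB, ABCC3 and ALDH3A1 had the lowest values relative to their chromosome medians (−2.35, −1.84, −1.64 and −1.58). GSR (chromosome 8), ME1 and GCLC (chromosome 6) were at −0.90, −1.09 and −0.89 on that scale, farther from 0 than their log2 fold changes. Other members lay nearer to 0 or changed sign, with IDH1 at −0.86, CBR1 at −0.27, HMOX1 at −0.21, CBR3 at 0.11, MAFG at 0.33, PRDX1 at 0.01, NFE2L2 at 0.05 and KEAP1 at 0. EPHX1 and ABCC2 were at 0.51 and 0.93, and PGD at 0.23.

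**Figure D4:**
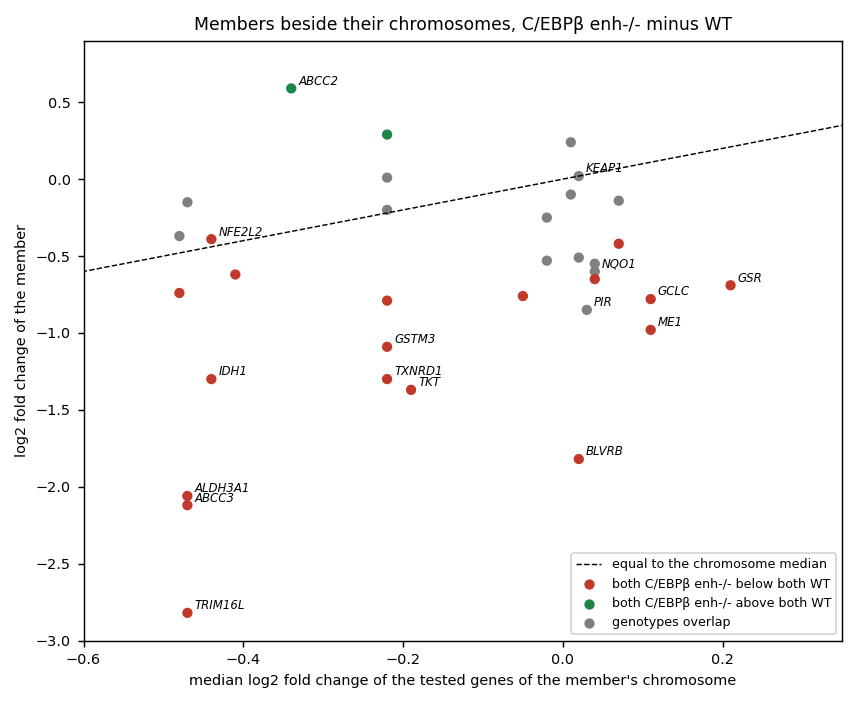
Log2 fold change of each of the 34 tested genes against the median over the tested genes of its chromosome, C/EBPβ enh-/- minus WT, coloured as in the plot of differences. The dashed line marks equality, and the points of NFE2L2 and KEAP1 lie on it while TRIM16L, ABCC3, ALDH3A1 and BLVRB lie farthest below.

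Of the 9 tested genes with the element core in a promoter window, 5 had both C/EBPβ enh-/- values below both WT values (GCLM, TXNRD1, ME1, IDH1 and CBR1), 3 overlapped (KEAP1, PGD and PIR) and EPHX1 was above. Of the 15 genes with a window but no match in it, 6 were below, 8 overlapped and 1 was above, where 37.5% of all tested genes were below and 15.1% above. The median log2 fold change was −0.79 with and −0.51 without a match, given as a description of genes that share libraries. Sequence outside the windows was not searched, so a gene without a match may still have an element.

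Further genes of the pathway were taken from a list of 39 written from textbook knowledge, with earlier results of these data known. Of these, 29 reached a mean of 1 FPKM. ABCG2 fell and was the only one to pass the threshold, where 1.21% of all tested genes were lower. Of the 29, 0 were higher, where 0.248% of all tested genes were. At an unadjusted p under 0.05, 9 of the 29 were lower and 1 was higher (limma), where 16.9% and 3.86% of all tested genes were. With centring on the median, 1263 of the 12491 tested genes were lower and 1142 higher at that p. The counts of the 29 are given only without centring, so they pair with the 16.9% and 3.86%. ABCG2, an exporter of drugs and urate, had 5.2 and 3.74 FPKM in WT and 0.735 and 0.365 in C/EBPβ enh-/- libraries, for which limma gave a log2 fold change of −1.82 (standard error 0.29) and an adjusted p of 0.038. It passed in 4 of the 8 other fits of all 4 libraries that tested it, and the call was lost whenever a library was left out, with adjusted p-values from 0.0201 to 0.261 (limma). Both C/EBPβ enh-/- values were below both WT values in 15 of the 29, where 37.5% of all tested genes were below, and above in 2, where 15.1% were, the ubiquitin ligase subunit gene BTRC (0.57, adjusted p = 0.226, limma) and the exporter gene ABCC5 (0.37, adjusted p = 0.399, limma). When a library was left out, BTRC ranged from 0.39 to 0.75 and ABCC5 from 0.21 to 0.53. The median over the 29 was −0.32, or −0.18 relative to all tested genes.

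Beside ABCG2, the genes TRIM16 (−2.10), ABCC4 (−1.40), which encodes an exporter, and GSTM4 (−1.06), which encodes a glutathione S-transferase, had a log2 fold change of −1 or lower with separated genotypes, and they are named after their values were seen. Their adjusted p-values ranged from 0.0657 to 0.117 (limma), and ABCC4 ranged from −1.92 to −0.87 when a library was left out. Also named after their values were seen, the KEAP1 ligase partners CUL3 and RBX1 and the NRF2 competitor BACH1 had log2 fold changes of −0.32, −0.09 and 0.24, with adjusted p-values from 0.454 to 0.883 (limma). When a library was left out, CUL3 ranged from −0.45 to −0.18, RBX1 from −0.43 to 0.24, which turns its sign, and BACH1 from 0.08 to 0.39. Not tested for low values were GSTA1, GSTM1, GSTM2, UGT1A1, UGT1A6, ALDH1A1, ADH7, CYP4F11, NR0B1 and PANX2, all below 0.5 FPKM in every library.

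**Figure D5:**
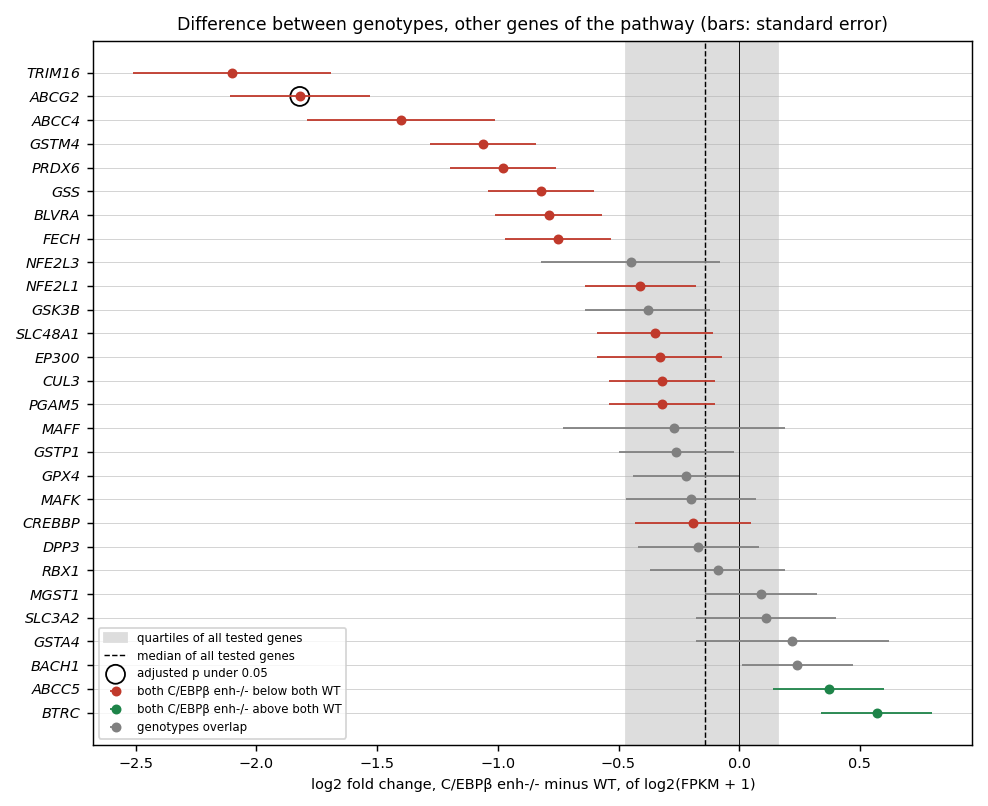
Log2 fold change of 28 of the 29 tested further genes of the pathway, C/EBPβ enh-/- minus WT, with bars of 1 standard error from limma (n = 2 libraries per genotype) and colours as in the plot of differences. ABCG2 carries the ring for an adjusted p under 0.05, and BTRC and ABCC5 are the only points with both C/EBPβ enh-/- values above both WT values.

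The aldo-keto reductases, NRF2 targets left out of the 36, had lower values too. In limma, AKR1C1, AKR1C2 and AKR1C3 had log2 fold changes of −4.37, −4.50 and −3.15 (adjusted p from 0.000508 to 0.0235), with fragments possibly divided between these relatives, and AKR1B10 was too low to be tested.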

How the data were processed

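RNA-seq was measured in 4 libraries labelled HepG2. The authors deposited 1 FPKM value per gene and library for 57815 entries, and the submitters' processing notes name TopHat2 2.0.13, Cufflinks, edgeR and hg19, with no role given. Whether the libraries were scaled to each other is not given in the sources used here. The labels' extraction text describes chromatin isolation with an antibody although the molecule is total RNA. After leaving out pseudoautosomal Y copies, 57768 entries remained and 55535 identifiers matched a symbol. All 36 members matched. Read counts were not used here, so precision rests on n = 2 per genotype.

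Values were transformed as log2(FPKM + 1), the 12491 genes averaging 1 FPKM or more were kept, and the genotype term was tested in R 4.3.3 by limma 3.58.1 (lmFit, eBayes with trend), two-sided, with Benjamini-Hochberg adjustment over all tested genes and a threshold of 0.05. No replicate block was used. The fit was tested on simulated data. Relative depth was the modal ratio of values under 0.3 FPKM between libraries. Positions came from GENCODE 44 lifted to GRCh37, and promoter windows from RefSeq on GRCh38.p14. Python 3.11.15 with pandas 2.3.3 and numpy 2.4.6 made the tables, and matplotlib 3.10.9 drew the plots.

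The members and lists were chosen with earlier results of these data known. The naming rule gives per-library values for the regulators (NFE2L2, KEAP1, MAFG, SQSTM1), for NQO1, HMOX1, GCLC, GCLM, TXNRD1 and SLC7A11, and for members without overlap whose log2 fold change was 1 or more in size. Values of other members were chosen after they were seen. Of the other pathway genes the rule names those past the threshold or, where none passed in a direction, the 3 with the largest change among those without overlap (upwards there were 2). It also names CEBPB, the aldo-keto reductases and ENSG00000259001. The alternatives were no trend, no filter, a pseudocount of 0.1, a stricter minimum of 5 FPKM, rescaling to the same total, centring on the median, the replicate block and leaving out each library. Leaving out genes listed at 0, and rescaling without ENSG00000259001, were added after seeing the data. Single genes of the pathway and marker lists are not all reported here.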

Additional observations from a re-analysis of the deposited data

How the results depend on the processing

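Against 151 lower and 31 higher genes past the threshold (limma), 61 were lower with rescaling to the same total, 68 with centring on the median and 93 with the replicate block, 20 were higher with a mean FPKM of at least 5, and the unfiltered fit gave 0 lower and 0 higher (limma, with 2710 lower and 1136 higher at unadjusted p under 0.05). Of the fits added later, leaving out genes listed at 0 gave 324 lower and 47 higher, and 43 were lower with rescaling without ENSG00000259001. Leaving out a library gave 9 to 22 lower and 3 to 20 higher genes, with the lone library assumed to vary like the other genotype. Among the members, 1 of which passed (ABCC3), the count of lower genes was 2 with the replicate block (TRIM16L as well), 3 without genes listed at 0 (TRIM16L and GSTM3 as well), and 0 without the filter (where 0 of all genes passed), with a mean FPKM of at least 5 (where ABCC3 was not tested), with either rescaling, with centring and when any library was left out. Among the other pathway genes, 1 of which passed (ABCG2), it was 2 with the replicate block (TRIM16 as well), 3 without genes listed at 0 (TRIM16 as well among those reported here), 1 with a mean FPKM of at least 5 (where ABCG2 was not tested), and 0 without the filter, with either rescaling, with centring and when any library was left out. The cause of these changes was not tested. No member and no other pathway gene passed upwards in any fit.

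The all-gene median (−0.14) moved to −0.0012 in the unfiltered fit, to 0.03 when centred, to 0.02 with rescaling without ENSG00000259001, and ranged from −0.19 to −0.10 without a library. Centring fixes this median near 0. The median of the other pathway genes (−0.32) was −0.14 when centred, −0.14 with rescaling without ENSG00000259001, and from −0.43 to −0.29 without a library. The members' median kept its sign in every fit, from −0.83 to −0.38 without a library, and lay below the median of all tested genes by 0.24 to 0.68. NQO1 ranged from −1.16 to −0.05 without a library. Of the 34 members, 23 had the same sign in every fit, and CEBPB passed the threshold in none. The share of all tested genes with 1 sign in every fit is not given here. These fits reuse the same libraries, and the members were listed with their fold changes known, so the constant signs are a description only. Same-numbered libraries deviated together by r = 0.00945 across genes, so the numbers were not taken to pair the libraries.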
